A study of Mus musculus with 108 samples.

Results

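The Obox genes encode oocyte-specific homeobox proteins, and 6 of them were followed here: Obox1, Obox2, Obox3, Obox5, Obox6 and Obox7. The members were the 6 rows of the gene count files whose Ensembl mouse identifier carries these symbols, out of 55573 identifiers. Each sample was a single mouse oocyte, taken from females in which Exosc10 was knocked out in oocytes (cKO) or from control females. EXOSC10 is a 3′-to-5′ exoribonuclease of the nuclear RNA exosome, which trims and degrades RNA. Libraries of polyadenylated RNA (polyA) were made from 64 oocytes of 16 females, and libraries made without polyA selection and with ribosomal RNA removed (RiboMinus) from 22 oocytes of 7 other females. The 3 stages were GV (germinal vesicle, meiotic prophase arrest), GV3h (oocytes after 3 hours of culture in M2 medium, polyA libraries) and MII (ovulated eggs taken from the oviduct). This gave 10 groups. In polyA libraries GV had 7 control and 15 cKO oocytes, GV3h had 8 control and 11 cKO oocytes, and MII had 8 control and 15 cKO eggs. In RiboMinus libraries there were 8 control and 7 cKO oocytes at GV, and 3 control and 4 cKO eggs at MII. The labels give neither the Cre line behind the knockout nor the strain or age of the females. Each group held oocytes of 1 to 3 females, all of a single genotype, so p-values over oocytes partly measure the spread between oocytes of the same animals.

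OBOX proteins bind DNA through a paired-like homeodomain. Transcripts of Obox1, Obox2, Obox5 and Obox7 are stored in the growing oocyte, while Obox3 is known mainly as a product of the early embryo. Maternal and zygotic OBOX proteins act together in zygotic genome activation, the start of transcription in the cleavage embryo, and can stand in for each other. Many stored maternal mRNAs carry a short poly(A) tail that is lengthened during meiotic maturation. The polyA libraries were captured on oligo(dT), which binds the tail, and the RiboMinus libraries were primed with random hexamers.

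The members are near copies of each other, which bears on every count below. In the GENCODE M21 annotation (GRCm38) they lie within 1.18 Mb of chromosome 7. Obox7 is at chr7:14659496-14665996 on the plus strand, Obox2 at chr7:15388721-15398545 (plus), Obox1 at chr7:15388948-15556866 (plus), Obox3 at chr7:15479825-15639902 (minus), Obox5 at chr7:15750131-15759800 (plus) and Obox6 at chr7:15833241-15839678 (minus). All 6 are annotated as protein coding. The Obox1 and Obox2 models share 59 exonic bases, and the Obox1 and Obox3 loci overlap on opposite strands without sharing exons. Coding sequences of the first transcript of each gene were 98.7% identical between Obox1 and Obox2 over aligned bases and 96.0% identical between Obox5 and Obox7. Obox6 was the most distant, with 81.5% to 84.3% identity to the other members. The coding bases 101 to 190 of the 4 members abundant in oocytes are shown because they are the most alike stretch of this length, with the 4 differing positions in capitals:
Obox1: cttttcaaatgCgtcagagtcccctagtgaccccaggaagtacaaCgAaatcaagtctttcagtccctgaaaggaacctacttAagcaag
Obox2: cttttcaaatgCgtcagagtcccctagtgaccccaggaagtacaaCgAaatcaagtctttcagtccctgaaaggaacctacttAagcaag
Obox5: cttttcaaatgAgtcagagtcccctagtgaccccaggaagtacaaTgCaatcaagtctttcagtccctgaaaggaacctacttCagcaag
Obox7: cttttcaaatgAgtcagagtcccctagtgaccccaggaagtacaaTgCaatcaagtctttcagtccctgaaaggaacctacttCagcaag
Within this stretch Obox1 equals Obox2 and Obox5 equals Obox7, so a read inside it names a pair of genes and not a gene.

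How far a read can name its gene was measured by cutting each member's annotated transcripts into windows and searching all annotated mouse transcripts for each window on both strands. With windows of 75 bases, 47.2% of Obox1 windows and 52.6% of Obox2 windows occurred in another gene, in every case each other. The share was 12.3% for Obox3, 6.53% for Obox7, 6.04% for Obox5 and 1.34% for Obox6. Windows of 100 bases lowered the share to 42.3% for Obox1, 47.2% for Obox2 and 1.75% for Obox5. The deposited files carry a line for reads that aligned to more than 1 place, and that line was 0 in every gene library, so the counts hold reads aligned to 1 place as far as the files tell. The read length, the handling of multiply aligned reads and the strand setting were not given in the sources used here. Obox1 and Obox2 are therefore best read together, and their separate values as uncertain.

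**Figure D1:**
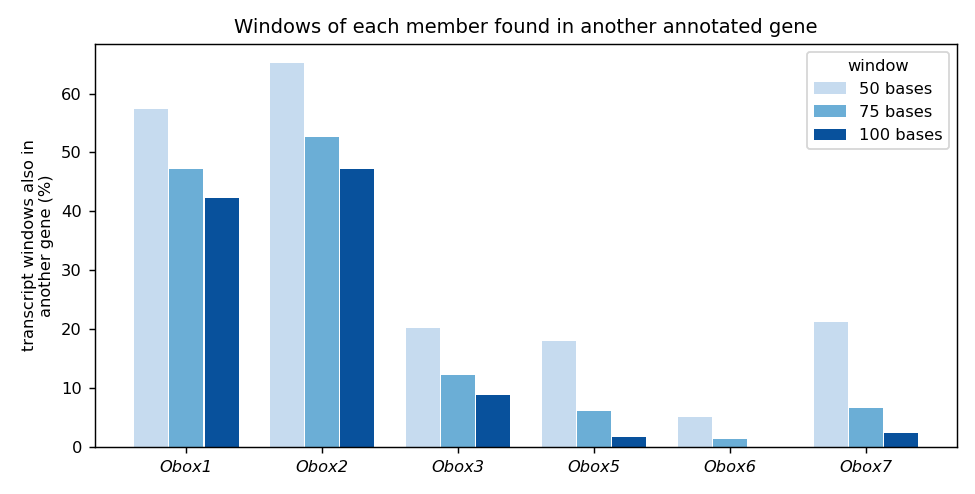
Percentage of each member's transcript windows (50, 75 or 100 bases; y axis) that also occur in another annotated mouse gene, for the 6 members on the x axis. Obox1 and Obox2 stand above the other members at each window length, with 47.2% and 52.6% at 75 bases.

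Sequence upstream of the start sites is likewise shared. RefSeq promoter windows (GRCm38.p6) were found for 5 of the 6 members, with no window for Obox6. Whether this sequence bears on the levels below was not tested. The 250 bases before each RefSeq start are printed because the 4 abundant members have a run of 37 bases in common there, marked in capitals:
Obox7, chr7:14659458-14659707 (plus strand): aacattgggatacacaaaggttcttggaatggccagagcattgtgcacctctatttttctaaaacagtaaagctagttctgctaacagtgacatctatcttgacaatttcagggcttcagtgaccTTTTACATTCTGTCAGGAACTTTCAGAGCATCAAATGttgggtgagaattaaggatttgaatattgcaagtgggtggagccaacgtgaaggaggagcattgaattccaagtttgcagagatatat
Obox2, chr7:15388601-15388850 (plus strand): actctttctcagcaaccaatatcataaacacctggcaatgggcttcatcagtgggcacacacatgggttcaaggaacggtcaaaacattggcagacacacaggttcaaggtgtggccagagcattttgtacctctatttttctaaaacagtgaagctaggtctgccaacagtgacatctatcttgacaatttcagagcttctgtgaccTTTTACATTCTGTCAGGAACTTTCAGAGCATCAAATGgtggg
Obox1, chr7:15547007-15547256 (plus strand): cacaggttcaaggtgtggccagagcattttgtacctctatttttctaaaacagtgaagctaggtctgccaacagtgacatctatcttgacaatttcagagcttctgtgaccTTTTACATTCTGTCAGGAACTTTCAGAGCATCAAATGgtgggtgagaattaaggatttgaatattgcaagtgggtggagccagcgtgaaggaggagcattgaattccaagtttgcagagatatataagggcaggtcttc
Obox5, chr7:15750120-15750369 (plus strand): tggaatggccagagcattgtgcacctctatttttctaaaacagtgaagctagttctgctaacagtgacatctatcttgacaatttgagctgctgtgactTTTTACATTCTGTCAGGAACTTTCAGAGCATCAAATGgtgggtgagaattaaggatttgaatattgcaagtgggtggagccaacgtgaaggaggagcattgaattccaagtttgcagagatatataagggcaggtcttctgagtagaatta
Obox3, chr7:15639778-15640027 (minus strand): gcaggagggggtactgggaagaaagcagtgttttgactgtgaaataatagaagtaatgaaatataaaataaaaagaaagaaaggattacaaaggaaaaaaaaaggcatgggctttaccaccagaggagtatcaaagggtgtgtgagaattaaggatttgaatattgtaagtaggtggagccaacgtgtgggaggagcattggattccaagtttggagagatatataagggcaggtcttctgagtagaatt
Of 32851 upstream windows of the table, 4 held the 37-base run on either strand, those of Obox1, Obox2, Obox5 and Obox7, and the Obox3 window did not hold it. The run ends 5 bases before the RefSeq start of Obox2 and 88 to 114 bases before the other 3. GENCODE places the starts of these 4 loci further upstream, so by that annotation the run lies inside the genes. The windows of Obox2 and Obox1 were identical over 153 aligned bases, and those of Obox7 and Obox5 were 97.3% identical over aligned bases, against 79.3% for Obox7 and Obox3. Of 4 motifs searched on both strands, the E-box CANNTG, the general site of bHLH factors, occurred in the windows of these 4 members and not in that of Obox3, against 66.2% of all windows. GGATTA, the core bound by bicoid-type homeodomains, and TATAAA, the TATA box, occurred in the Obox3 window and in none of the other 4, against 6.3% and 12.4% of all windows. TAATTG, a general homeodomain core, occurred in none of the 5, against 7.2% of all windows.

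Total counts over genes ran from 4638718 to 8735914 per polyA library and from 12319658 to 62675760 per RiboMinus library. Levels here are CPM, counts scaled to the library total multiplied by a TMM factor (trimmed mean of M values). Exosc10, the targeted gene, was at 0 to 3.25 CPM in the polyA GV cKO oocytes against 43.0 to 55.5 in controls. Its cKO and control levels did not overlap in any of the 5 pairs of groups. All 10 oocyte markers (Zp1, Zp2, Zp3, Gdf9 and others) were counted in every group, with summed levels of 17514 to 30402 CPM in polyA libraries. Granulosa and cumulus markers summed to 10.7 to 126 CPM over all groups and blood markers to at most 13.1 CPM outside the RiboMinus MII cKO eggs described below. Some markers moved with the groups. The blood marker Cd68 was higher in cKO at polyA GV (1.74), GV3h (1.41) and MII (3.29 on the log2 scale). Of 5 granulosa markers tested at polyA GV, 2 were higher in cKO (Cyp11a1 1.58, Fshr 3.27) and the list's median was -0.47, with a median summed level of 35.6 CPM in cKO. Of 10 oocyte markers, 0 were higher and 3 lower in polyA GV cKO oocytes, 2 were higher and 3 lower at GV3h, 6 and 0 at polyA MII, 3 and 1 at RiboMinus GV, and 2 and 3 at RiboMinus MII. The median granulosa sum was 44.8 CPM in polyA GV controls and 96.2 CPM in polyA MII controls. Their part in the results was not tested. Spike-in RNA was added per the labels and was not used here, so every level is relative to the rest of its library.

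Obox1, Obox2, Obox5 and Obox7 were abundant in every oocyte, while Obox3 and Obox6 were at or near the detection limit. Levels are CPM scaled with TMM factors (trimmed mean of M values), with polyA and RiboMinus libraries scaled separately. Per kb of annotated exon, mean levels in polyA GV control oocytes were 717 ± 216 CPM per kb for Obox2, 401 ± 114 for Obox5, 222 ± 55.6 for Obox1 and 67.3 ± 10.5 for Obox7 (SD, n = 7). Obox2 stood above Obox5 per kb in 7 of 7 of these oocytes, although their ranges overlapped, and Obox5 stood above Obox1 in 7 of 7, again with overlapping ranges. Obox7 lay below the other 3 in every control oocyte, with no overlap of ranges in any control group. In RiboMinus GV control oocytes the order per kb was the same, with 527 ± 86.1 for Obox2, 343 ± 41.4 for Obox5, 269 ± 38.7 for Obox1 and 72.0 ± 12.5 for Obox7 (SD, n = 8). These lengths include stretches shared with other genes, 47.2% of 75-base windows for Obox1 against 6.04% for Obox5. The order was not corrected for this, so the places of Obox1 and Obox5 in it are uncertain.

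Across the 6 polyA groups the medians of Obox1, Obox2 and Obox5 took the same order. From high to low it ran MII controls, MII cKO, GV controls, GV3h controls, GV cKO and GV3h cKO. For Obox2 these medians were 3038, 2186, 1150.05, 1040.2, 693 and 534 CPM. Neighbours in that order that were compared and did not pass the test were, for Obox1, both MII groups, and for all 3 genes GV against GV3h in controls and in cKO. The neighbours MII cKO and GV controls, and GV3h controls and GV cKO, differ in stage and genotype and were not tested. Obox7 shared the first 3 places (311, 264 and 117 CPM), after which GV3h cKO (88.1 CPM), GV3h controls (82.9 CPM) and GV cKO (78.5 CPM) lay close together.

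**Figure D2:**
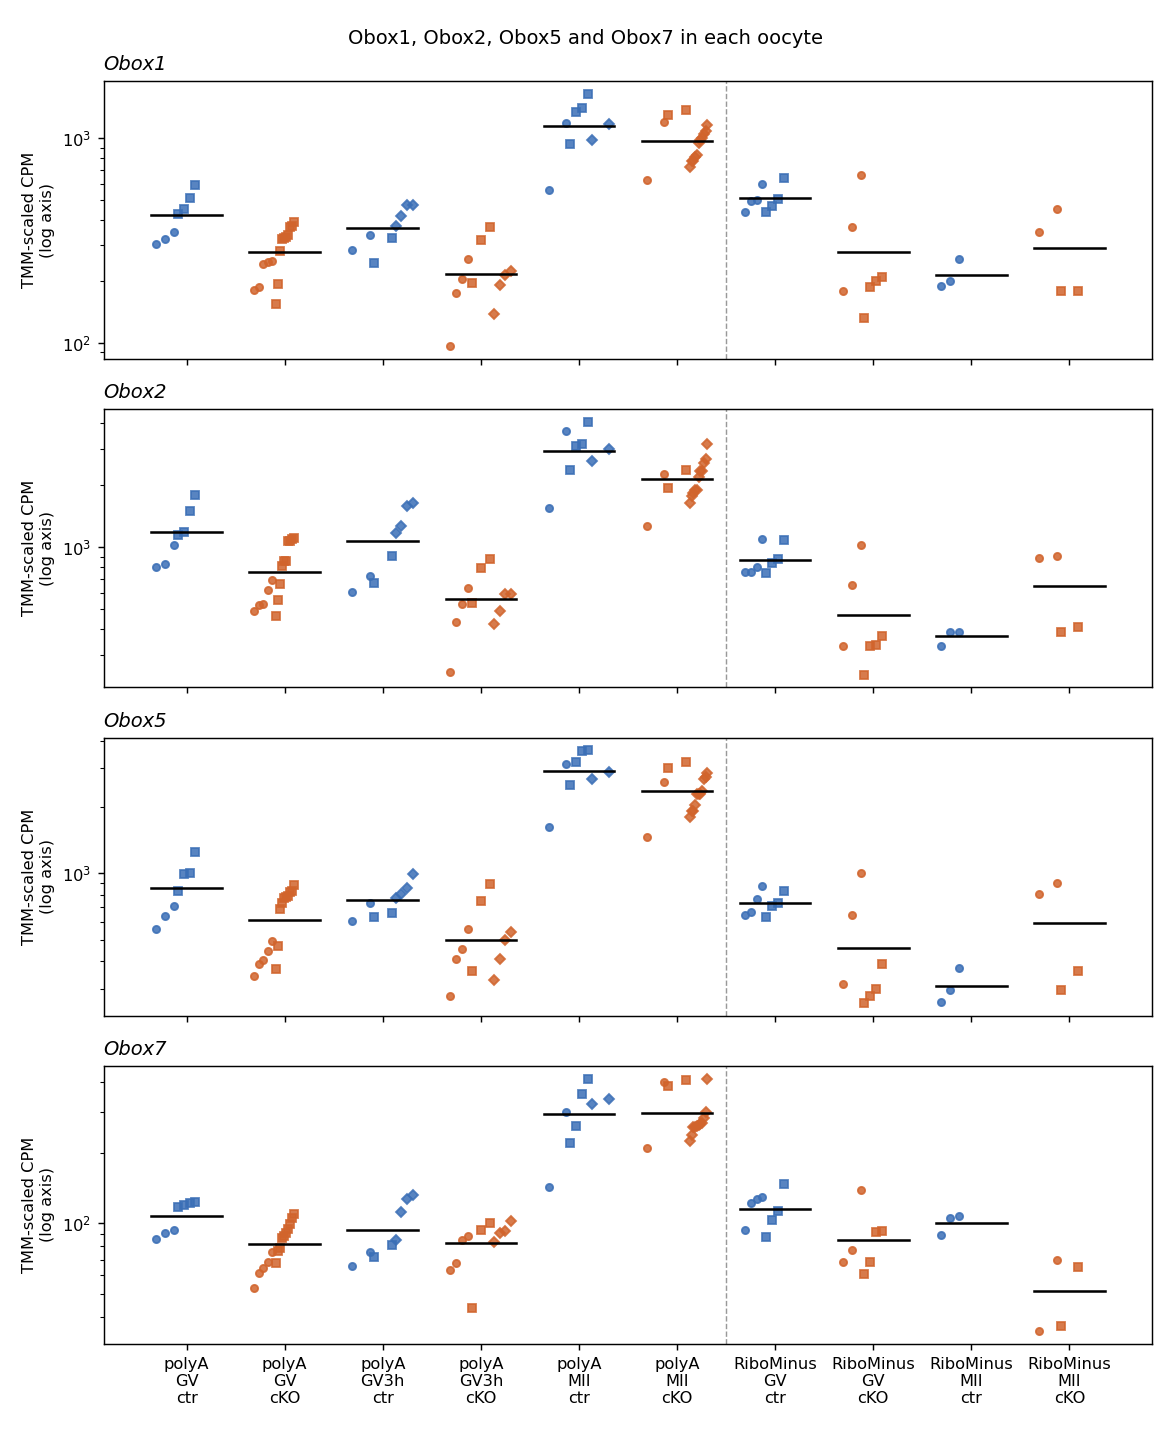
TMM-scaled CPM (log axis) of 4 members in each oocyte, by group on the x axis, with blue for controls, orange for cKO, a marker shape for each female within a group and a bar at the group mean. The means of the MII polyA groups lie above those of the GV polyA groups for each gene, although single oocytes overlap for Obox1 and Obox2. For Obox1, Obox2 and Obox5 the RiboMinus MII controls (189 to 256 CPM for Obox1) lie below the RiboMinus GV controls (436 to 642 CPM). For Obox7 these 2 groups overlap.

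Reads of the family were divided among the members in a similar way in most groups. In polyA GV controls Obox2 took 45.8% ± 1.9 of the summed CPM of the 6 members, Obox5 33.4% ± 1.62, Obox1 16.5% ± 0.62 and Obox7 4.32% ± 0.59 (SD, n = 7; shares of reads, not corrected for length). At polyA MII the Obox5 share was 40.2% ± 2.06 and the Obox2 share 40.1% ± 2.28 (controls, SD, n = 8). The Obox7 share ran from 4.02% ± 0.57 to 6.5% ± 1.99 over the polyA groups (highest in GV3h cKO). In RiboMinus libraries it was 5.24% ± 1.02 in GV controls, 7.52% ± 2.22 in GV cKO, 10.1% ± 0.92 in 3 MII controls and 3.82% ± 2.03 in 4 MII cKO eggs. Summed over the members, the family took 2568 ± 713 CPM in polyA GV controls and 7288 ± 1773 CPM in polyA MII controls.

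**Figure D3:**
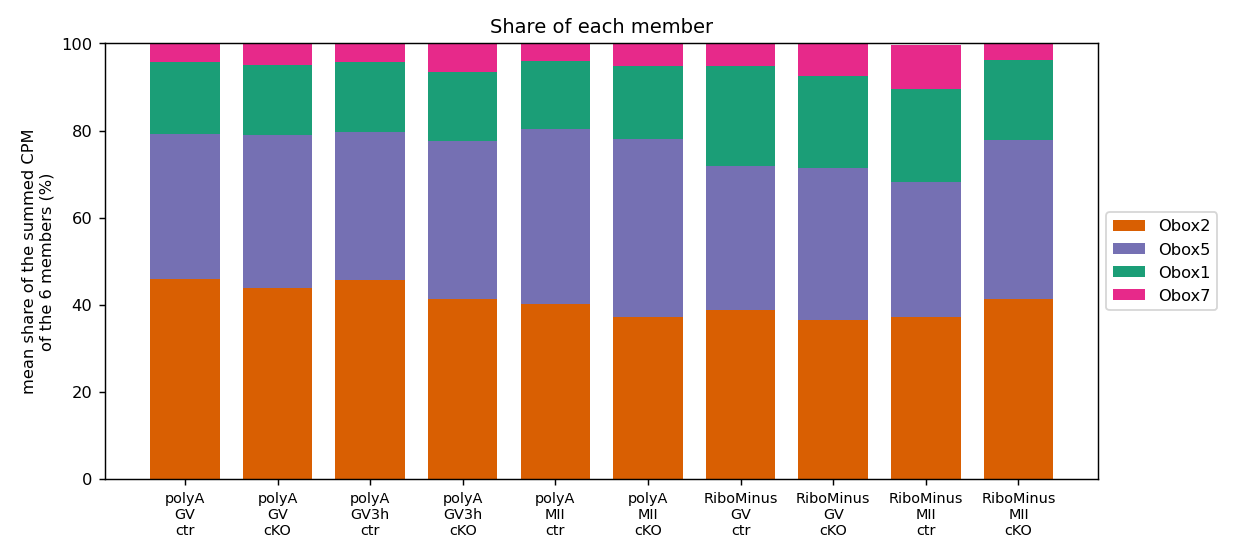
Mean share of the summed CPM of the 6 members taken by Obox2, Obox5, Obox1 and Obox7 (y axis, percent) in the 10 groups (x axis). The Obox7 segment is widest in RiboMinus MII controls at 10.1% and narrowest in RiboMinus MII cKO eggs at 3.82%.

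Obox3, whose product is known from the early embryo, had no counts in 32 of 64 polyA oocytes and at most 5 counts in any. A count of 0 allows up to 3 counts, or 0.343 to 0.647 CPM at these depths (counting error only). In RiboMinus libraries Obox3 was at 0 in 7 of 22 oocytes, and its highest count was 116 (6.02 CPM) in a single MII control egg, V1145_4, followed by 14 in the next oocyte. Obox6, known for raising the yield of induced pluripotent cells when supplied, was at 0 in 35 of 64 polyA oocytes with a highest count of 14. In RiboMinus libraries it was at 0 in 11 of 22, with 127 counts (2.09 CPM) in the MII cKO egg V1166_1, the most deeply sequenced library, and 12 counts in the next. Obox3 passed the filter on low counts in 2 of the 13 fits and Obox6 in none, so the counts of members below are over those tested, 4 or 5 of the 6.

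Another 49 genes carry an Obox symbol, and 20 of them had no count in any library. At least 10 counts in some library were reached by 15: Obox3-ps1, Obox3-ps3, Obox3-ps6, Obox3-ps7, Obox3-ps8, Obox4-ps2, Obox4-ps3, Obox4-ps15, Obox4-ps16, Obox4-ps23, Obox4-ps27, Obox4-ps29, Obox4-ps30, Obox4-ps31 and Obox4-ps34. The highest was 68 counts for Obox4-ps27 in a RiboMinus MII cKO egg. The lowest count of Obox2 in any RiboMinus MII cKO egg was 10704. Reads of the pseudogene copies cannot be assigned with certainty among copies.

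At GV, all 4 tested members were lower in cKO oocytes than in controls in polyA libraries. Obox2 was at 800.4, 1150.05 and 1781 CPM in controls (lowest, median, highest; n = 7) and at 465, 693 and 1113 CPM in cKO (n = 15). The 15 cKO values all lay below the control median, while the ranges overlapped. Its log2 fold change was -0.66 (SE 0.19, edgeR quasi-likelihood adjusted p = 0.0073). Obox1 went from 305, 424 and 593 CPM to 155, 280.4 and 389.98 CPM, a log2 fold change of -0.62 (SE 0.17, adjusted p = 0.00537, edgeR). Obox5 (557, 834 and 1255 CPM against 341, 688 and 889.01) fell by 0.50 (SE 0.20, adjusted p = 0.0475, edgeR), and Obox7 (85.7, 117 and 124 CPM against 53.2, 78.5 and 109.87) by 0.43 (SE 0.13, adjusted p = 0.0102, edgeR). Among all 14606 genes tested, 22.0% were higher and 18.5% lower in cKO, so 4 of 4 members lower stands beside a background of 18.5%. Scaled by library totals, 4380 genes were higher and 1853 lower, against 3207 and 2701 with TMM.

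These GV differences moved with the females. Mean Obox2 was 883 and 1404 CPM in the control females V856 and V889, and 571 and 855 CPM in the cKO females V857 and V888, so V856 and V888 were close to each other. Without V889 none of the 4 members was called, and the log2 fold changes were -0.27 for Obox1, -0.26 for Obox2, -0.10 for Obox5 and -0.20 for Obox7, with 2835 genes called in all (1468 lower) against 5908. Without V857 Obox5 lost its call (-0.27), while without V888 they were -0.95, -1.08, -1.08 and -0.76, all called. With counts summed per female the log2 fold changes were -0.71, -0.77, -0.63 and -0.52 and none was called, and in that fit 1 gene of all was called. By limma with female as a random effect none of the 4 was called either, with 1379 of 14606 genes called. Scaled by library totals, Obox5 (-0.35) and Obox7 (-0.28) were not called. Obox5 was also not called with DESeq2 size factors (-0.49) or without the filter (-0.51).

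After 3 hours in culture, 3 of 4 tested members were lower in cKO oocytes. Obox2 was at 607, 1040.2 and 1639.97 CPM in controls (n = 8) and at 247, 534 and 871 CPM in cKO (n = 11), with all 11 cKO values below the control median. The log2 fold change was -0.95 (SE 0.21, adjusted p = 0.000553, edgeR). Obox1 (245, 355 and 473 CPM against 95.8, 205 and 369.5) fell by 0.77 (SE 0.19, adjusted p = 0.00164, edgeR) and Obox5 (610.5, 753 and 994 CPM against 276, 453 and 891) by 0.62 (SE 0.18, adjusted p = 0.00505, edgeR). Obox7 was at 65.9, 82.9 and 132 CPM in controls and 43.7, 88.1 and 103 CPM in cKO, a log2 fold change of -0.19 (SE 0.16, adjusted p = 0.315, edgeR), and whether it differed from the other 3 in this was not tested. Here 26.1% of the 13622 genes tested were lower and 29.4% higher (3555 and 4001 genes, or 2524 and 5189 scaled by library totals). Female means of Obox1, Obox2 and Obox5 overlapped between genotypes. The cKO female V983 was at 295, 732 and 666 CPM. That was above the control female V982 for Obox1 (286 CPM) and Obox5 (648 CPM), and above V951 for Obox2 (667 CPM). The 3 calls held with counts summed per female (-0.67 for Obox1, -0.79 for Obox2, -0.55 for Obox5). They were lost without the control female V995, whose mean Obox2 was 1415 CPM against 667 and 787 in the other control females: the log2 fold changes were then -0.48, -0.40 and -0.43, with Obox7 at 0.14. Without V993 Obox5 was at -0.50 and not called.

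In polyA MII eggs 2 of 4 tested members were lower in cKO. Obox2 was at 1552, 3038 and 4046 CPM in controls (n = 8) and 1262, 2186 and 3159 CPM in cKO (n = 15), with 14 of 15 cKO eggs below the control median and overlapping ranges. It fell by 0.50 (SE 0.14, adjusted p = 0.00514, edgeR), and Obox5 (1627, 3007 and 3618 CPM against 1461, 2299 and 3194) fell by 0.34 (SE 0.13, adjusted p = 0.0326, edgeR). The log2 fold change of Obox1 was -0.29 (SE 0.15, adjusted p = 0.126, edgeR) and that of Obox7 -0.04 (SE 0.15, adjusted p = 0.86, edgeR). The background was 18.6% of 12564 genes lower and 19.0% higher (2339 and 2388 genes, or 1808 and 2943 scaled by library totals). Obox2 was called with counts summed per female (-0.55), with non-overlapping female means (2596, 2800.1 and 3163 CPM in controls, 1764, 2146 and 2209 in cKO), and Obox5 was not (-0.24). Without V853 Obox2 (-0.39) and Obox5 (-0.19) lost their calls, as they did without V897 (-0.60 and -0.19), when 2325 genes were called in all (1192 lower) against 4727. Obox5 also lost its call without V896 (-0.35), while Obox1 was called without V836 (-0.39) or V842 (-0.37).

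**Figure D4:**
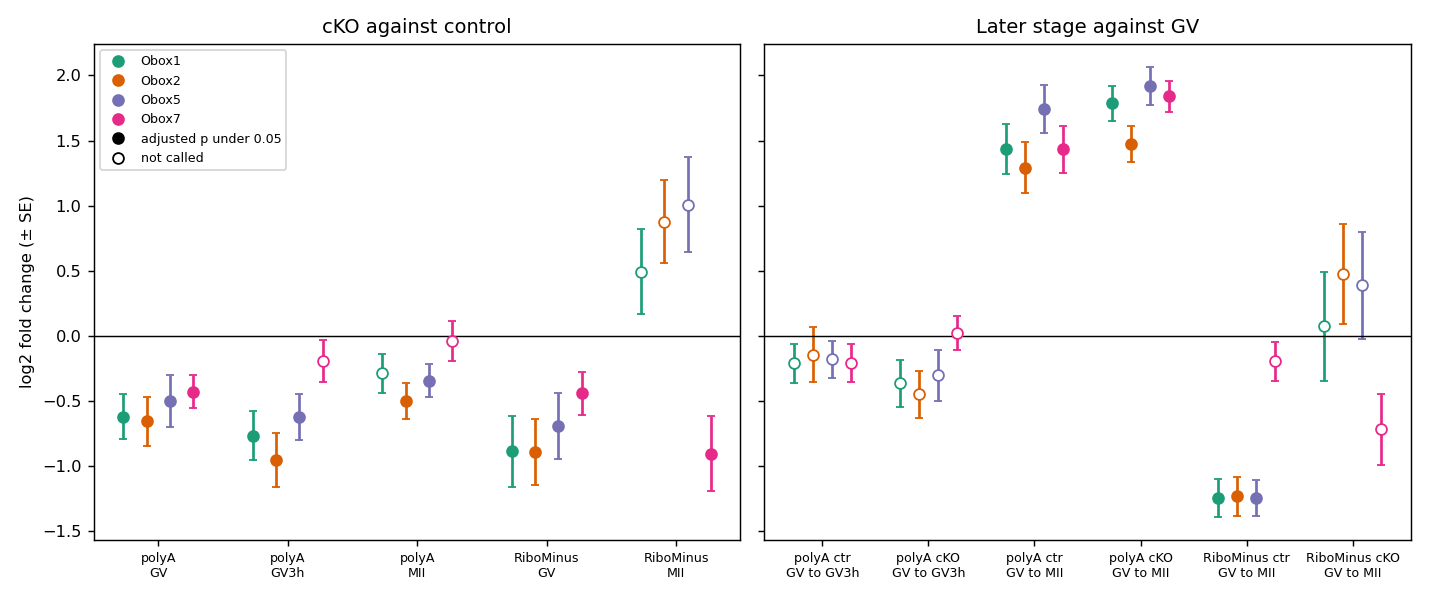
Log2 fold change with its SE (y axis) of 4 members for cKO against control (left) and later stage against GV within genotype (right), from the edgeR fits; filled points passed an adjusted p of 0.05. At GV all 4 members are below 0 in both library types, and GV to MII in controls runs from 1.29 to 1.74 in polyA libraries but from -1.25 to -0.19 in RiboMinus libraries.

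RiboMinus libraries of other females also had all 4 tested members lower in cKO oocytes at GV. Obox1 was at 436, 497 and 642 CPM in controls (n = 8) and 133, 199.6 and 660.3 CPM in cKO (n = 7), a log2 fold change of -0.89 (SE 0.27, adjusted p = 0.0177, edgeR). Obox2 (748, 819 and 1091 CPM against 241, 335 and 1023) fell by 0.89 (SE 0.25, adjusted p = 0.0118, edgeR). Obox5 (632, 722 and 878 CPM against 258, 316 and 1002) fell by 0.69 (SE 0.25, adjusted p = 0.0382, edgeR), and Obox7 (87.2, 117 and 147 CPM against 60.6, 76.6 and 138) by 0.44 (SE 0.16, adjusted p = 0.0428, edgeR). Over all 15347 genes, 16.5% were lower and 21.2% higher (2527 and 3247 genes, or 1995 and 3931 scaled by library totals). Obox7 was not called by library totals (-0.35), without the filter (-0.43) or by limma with female as a random effect (-0.47). Granulosa markers had a median sum of 34.7 CPM in these controls and 15.1 CPM in cKO, with 62.2 CPM in V1126_2. Of 5 tested, 1 was lower and 0 higher (median 0.14), and their part in the result was not tested.

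For Obox1 and Obox2, 6 of the 7 RiboMinus GV cKO oocytes lay below every control, and the remaining one, V1126_3, was at 660.3 CPM of Obox1, above the highest control, and at 1023 CPM of Obox2, within the control range. For Obox5 (1002 CPM) it also lay above the highest control. Its Exosc10 level was 4.20 CPM, within the cKO range of 0.779 to 8.28 CPM. Without this oocyte, a choice made after seeing the data, the log2 fold changes were -1.28, -1.22, -1.02 and -0.61 for Obox1, Obox2, Obox5 and Obox7, and all 4 were called. Its female V1126 had a mean Obox1 of 403 CPM, against 183 CPM in V1131 and 507 and 514 CPM in the control females V1132 and V1133. Without V1131 no member was called and the log2 fold changes were -0.34, -0.37, -0.16 and -0.28, and over all genes 103 of 16326 were called, 49 of them lower. Leaving out either control female kept the sizes (-0.90, -0.92, -0.68 and -0.41 without V1132, and -0.88, -0.87, -0.71 and -0.48 without V1133) with no member called. Over all genes 2657 of 16366 were then called without V1132 (1801 of them higher, the rest lower) and 1407 of 16448 without V1133 (359 lower), against 5774 with all females. Counts summed per female gave -0.92, -0.92, -0.72 and -0.47, none called, with 3 genes of all called.

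**Figure D5:**
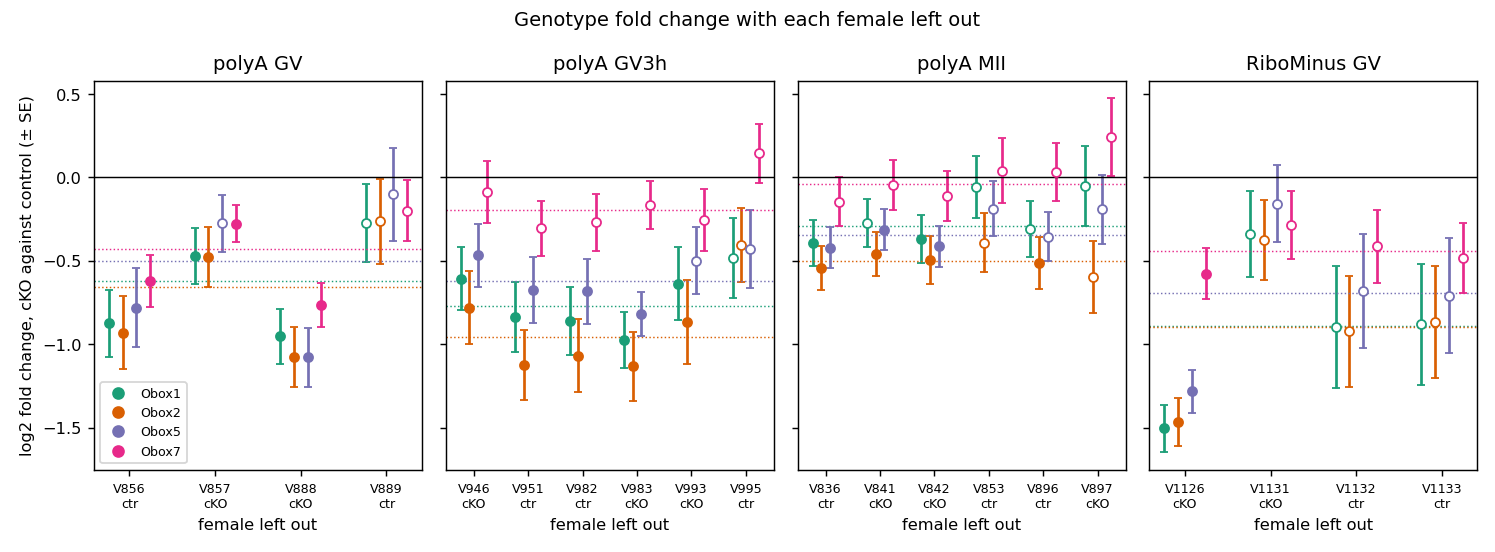
Log2 fold change of cKO against control with its SE (y axis) for 4 members when each female on the x axis is left out in turn, in 4 of the genotype comparisons; dotted lines are the values with all females and filled points passed an adjusted p of 0.05. No member is called without V889 (polyA GV), V995 (polyA GV3h), V853 or V897 (polyA MII), or V1131, V1132 or V1133 (RiboMinus GV).

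RiboMinus MII eggs were few, and the 3 controls came from a single female, V1145, so a difference between genotypes cannot be told apart from one between females. Obox7 was at 106, 107 and 89.1 CPM in controls and at 69.8 and 34.6 CPM (cKO female V1166) and 36.5 and 64.8 CPM (V1167) in cKO eggs, with every cKO egg below every control. It fell by 0.91 (SE 0.29, adjusted p = 0.0363, edgeR). Obox2 was at 387, 389 and 332 CPM in controls, 904 and 888.1 CPM in the V1166 eggs and 388 and 408 CPM in the V1167 eggs, so the V1166 eggs were high and the V1167 eggs stood near the controls. Its log2 fold change was 0.88 (SE 0.32, adjusted p = 0.062, edgeR). Obox5 behaved alike (372, 259.97 and 296 CPM in controls, 807 and 906 CPM in V1166, 294 and 361 CPM in V1167), with a log2 fold change of 1.01 (SE 0.37, adjusted p = 0.0624, edgeR), and the V1166 eggs were again the high ones. For Obox1 the controls were at 256.4, 200.2 and 189 CPM, the V1166 eggs at 348 and 452 CPM and the V1167 eggs at 179 and 178 CPM, a log2 fold change of 0.49 (SE 0.32, adjusted p = 0.301, edgeR). By edgeR with TMM, 1 of 4 tested members was thus lower and none higher, while DESeq2, library totals and no filter each also called Obox2 and Obox5 higher. The background was 9.78% lower and 13.9% higher over all 16675 genes.

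Obox3 was not tested in that fit. It was called lower in cKO without the filter (-6.01), with sums per female (-6.41, a single sample in the control arm) and without V1145_2 (-6.62), with 0, 14 and 116 counts in the 3 controls, the 116 in V1145_4, and 0 to 2 counts in the cKO eggs.

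Those eggs differed in more than genotype. Without V1167 the log2 fold changes of Obox1, Obox2 and Obox5 were 0.98, 1.36 and 1.56 and all 3 were called, and without V1166 they were -0.22, 0.16 and 0.13 with none called. The Obox7 difference was -0.94 and called without V1166 and -0.86 and not called without V1167. It was also not called without V1166_2 (-0.76), V1167_1 (-0.76), V1145_3 (-0.85) or V1145_4 (-0.99), nor without V1145_2 (-0.87), with sums per female (-0.82) or by limma with female as a random effect (-0.91), while Obox2 and Obox5 were called without V1167_1 (1.07 and 1.244) or V1167_2 (1.06 and 1.20). Gene totals were 20678209 to 62675760 counts in the cKO eggs and 16220993 to 20447150 in controls. The summed level of 6 theca and stroma markers was 21.2 and 29.1 CPM in the V1166 eggs, 16.4 and 5.52 CPM in the V1167 eggs and 3.77, 0.862 and 2.85 CPM in controls. In the cKO eggs 1 of the 6 markers was at 0 throughout (Cyp17a1), and in controls 3 were (Col1a1, Col1a2 and Cyp17a1). V1166_1 also carried 62.0 CPM of blood markers. Their part in the results was not tested.

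No member passed the test for a change over 3 hours of culture in either genotype. From GV to GV3h, 0 of 4 tested members passed in controls by edgeR or DESeq2, and none had an unadjusted p under 0.05. Without V856 3 of them reached that, and without V995 4 did (edgeR), with none called. Among all genes 2363 of 13160 and 1550 of 13227 reached it in those fits. The log2 fold changes in controls were -0.21 (SE 0.15) for Obox1, -0.14 (SE 0.21) for Obox2, -0.18 (SE 0.14) for Obox5 and -0.21 (SE 0.15) for Obox7. In cKO oocytes they were -0.36 (SE 0.18), -0.45 (SE 0.18), -0.30 (SE 0.19) and 0.02 (SE 0.13), with 0 of 4 called by either tool. An unadjusted p under 0.05 was reached by 1 (Obox2) in edgeR and by 2 in DESeq2. Over all genes 0.519% of 12716 (66 genes) were called in controls and 0.602% of 14280 (86 genes) in cKO oocytes. These counts moved with single females, to 376 without V856 and 207 without V889 in controls, and in cKO to 1548 without V857, 934 without V888, 466 without V983, 34 without V946 and 41 without V993. Obox2 was called without V857 (-0.63), when 1548 of 14018 genes were.

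From GV to MII, all 4 tested members rose in polyA libraries in both genotypes. In controls Obox5 went from 557, 834 and 1255 CPM (lowest, median, highest; n = 7) to 1627, 3007 and 3618 CPM (n = 8), with every egg above every GV oocyte. Its log2 fold change was 1.74 (SE 0.18, adjusted p = 8.47e-08, edgeR). Obox1 rose by 1.43 (SE 0.19), Obox2 by 1.29 (SE 0.20) and Obox7 by 1.43 (SE 0.18), with adjusted p of 2.64e-06, 1.06e-05 and 9.01e-07 (edgeR). For Obox1 and Obox2, 7 of 8 control eggs exceeded every GV oocyte, and the egg V836_1 did not. In cKO oocytes the rises were 1.79 (SE 0.14) for Obox1, 1.47 (SE 0.14) for Obox2, 1.92 (SE 0.15) for Obox5 and 1.84 (SE 0.12) for Obox7, with every cKO egg above every cKO GV oocyte.

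The 4 rises were called in each of the 11 alternatives of each genotype. The background was 30.1% of 12561 genes higher and 33.3% lower in controls, and 33.1% of 13217 higher and 41.7% lower in cKO oocytes. Scaling by library totals lowered the median log2 fold change of all genes, which was -0.08 with TMM in controls and became -0.46, and in cKO went to -0.62 with TMM at -0.17. Genes called higher and lower were then 2507 and 5435 in controls (3782 and 4179 with TMM), and 2812 and 7251 in cKO (4378 and 5509 with TMM). The members' rises were then 0.91 to 1.36 in controls and 1.02 to 1.47 in cKO oocytes.

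RiboMinus libraries gave the opposite direction in controls. Obox5 was at 632, 722 and 878 CPM at GV (n = 8) and at 372, 259.97 and 296 CPM in the 3 MII eggs, each below every GV oocyte. It fell by 1.25 (SE 0.14, adjusted p = 1.65e-06, edgeR). Obox1 fell by 1.25 (SE 0.15, adjusted p = 2.93e-06, edgeR) and Obox2 by 1.23 (SE 0.15, adjusted p = 3.28e-06, edgeR), again with no overlap between eggs and GV oocytes. The log2 fold change of Obox7 was -0.19 (SE 0.15, adjusted p = 0.356, edgeR), with overlapping ranges. Obox3, with 116 counts in V1145_4 and at most 14 in any other oocyte, was tested here and was not called (2.37, SE 1.09, adjusted p = 0.105, edgeR); without that egg it was at 0.06, and it was called with sums per female (2.60) and without V1145_2 (2.95). So 3 of 5 tested members fell, against 15.8% of 16340 genes lower and 15.0% higher, and the 3 falls were called in each of the 11 alternatives, of which sums per female holds 1 sample in the MII arm and assumes that it varies like the GV females. Granulosa markers moved in the same comparison, with 3 of 6 tested lower and 1 higher in eggs (median -2.20), and their part in the result was not tested. The eggs are those of V1145, so stage and female cannot be told apart in this comparison.

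Thus Obox1, Obox2 and Obox5 rose in polyA and fell in RiboMinus libraries of controls, and the difference between library types was not tested. The library types came from different females, were made with different kits and were scaled separately. Neither can show a change in RNA per oocyte.

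In RiboMinus cKO oocytes, 0 of 4 tested members were called from GV to MII by edgeR or DESeq2, and 1 (Obox7) had an unadjusted p under 0.05. The log2 fold changes were 0.07 (SE 0.42) for Obox1, 0.47 (SE 0.38) for Obox2, 0.39 (SE 0.41) for Obox5 and -0.72 (SE 0.27) for Obox7. The wide SEs go with the spread among both sets of cKO oocytes described above (V1126_3 at GV, V1166 against V1167 at MII). Without V1126 Obox2 was called (1.02), and without V1166 the values of Obox1, Obox2 and Obox5 were -0.64, -0.24 and -0.48. Of 17234 genes 16.1% were called in this comparison.

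The stage change was also compared between genotypes directly. In polyA libraries 0 of 4 tested members differed by edgeR or DESeq2 in their GV to MII change. An unadjusted p under 0.05 was reached by 1 (Obox7) in edgeR and by 0 in DESeq2, and 14.7% of 15546 genes were called (1484 higher and 803 lower with TMM, 1053 and 1058 with DESeq2 size factors, 1111 and 1023 with library totals). The median over all genes was 0.10 with TMM. The differences, cKO minus control, were 0.37 (SE 0.24) for Obox1, 0.20 (SE 0.24) for Obox2, 0.20 (SE 0.24) for Obox5 and 0.43 (SE 0.21) for Obox7. Without the cKO female V888 all 4 were called (0.74, 0.65, 0.81 and 0.79), when 4355 of 15427 genes were called, 2760 of them higher. Without V889 the values were -0.08, -0.30, -0.31 and 0.10, with none of the 4 and 764 of 17070 genes called. In RiboMinus libraries the difference was 1.70 for Obox2 (SE 0.45, adjusted p = 0.0131, edgeR) and 1.62 for Obox5 (SE 0.47, adjusted p = 0.0231, edgeR), so 2 of 5 tested members passed, both higher, against 7.85% higher and 7.0% lower over 19110 genes. In the same interaction 2 of 5 theca and stroma markers were higher (median 5.24), 1 of 8 granulosa markers was higher (median 1.27), and 2 of 10 oocyte markers were higher and 4 lower (median -0.69), and their part in the result was not tested. Obox1 was at 1.31 (SE 0.48, adjusted p = 0.0631, edgeR), Obox7 at -0.53 (SE 0.32, adjusted p = 0.265, edgeR) and Obox3 at -4.40 (SE 1.99, adjusted p = 0.134, edgeR). Neither call held without V1166 (1.01 and 0.78) or without V1131 (1.21 and 1.13), nor with counts summed per female (1.68 and 1.56). The Obox5 call was also lost without V1132, V1133, V1166_1, V1166_2, V1145_3 or V1145_4 (1.36 to 1.64). Obox1 was called without V1126, V1167, V1167_1, V1167_2 or V1126_3, and by library totals (1.35), DESeq2 (1.34) or with no filter (1.36).

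Other genes of the same setting were taken from 3 lists. Of 33 maternal and embryonic homeobox genes, 19 were tested at polyA GV, with 4 higher and 5 lower in cKO (median log2 fold change 0.03, against 0.06 over all genes). Over all genes 22.0% were higher and 18.5% lower, so these counts are near the background. Zfhx4, a large zinc-finger homeobox factor, was at -2.30 (SE 0.52) and Cux1, a cut homeobox factor, at -1.22 (SE 0.31), both called. At polyA GV3h 5 of 17 tested were higher and 7 lower (median -0.05), beside 29.4% and 26.1% over all genes. At polyA MII 3 of 16 were higher and 7 lower (median -0.38), beside 19.0% and 18.6% over all genes. At RiboMinus GV 5 of 20 tested were higher and 3 lower (median 0.16), near the 21.2% and 16.5% over all genes, with Zfhx4 again lower (-1.89, SE 0.45). From GV to MII in polyA controls 5 of 17 rose and 3 fell, where 30.1% of all genes rose and 33.3% fell. Nobox, a homeobox factor required for early folliculogenesis, fell by 1.66 (SE 0.14), and Tshz1 (1.41, SE 0.14) and Satb1 (1.10, SE 0.13) rose, so a fall and rises stood side by side.

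Among 22 regulators of zygotic genome activation, 19 were tested at polyA GV, with 5 higher and 4 lower in cKO (median 0.03), again near the background of 22.0% and 18.5%. Gabpa, an ETS factor, was higher by 2.20 (SE 0.35) and Yy1, a zinc-finger factor, by 1.71 (SE 0.23), and at RiboMinus GV they were higher by 2.31 (SE 0.59) and 1.91 (SE 0.35). From GV to MII in polyA controls 8 of 19 rose and 5 fell (median -0.06), beside 30.1% and 33.3% of all genes. Esrrb, an orphan nuclear receptor, fell by 2.12 (SE 0.22), and Tfap2c, an AP-2 factor, rose by 1.43 (SE 0.17). Of 25 genes of the 2-cell stage, 24 were in the files and 8 were tested at polyA GV, 4 higher and 2 lower in cKO. At RiboMinus GV 3 of its 6 tested genes were higher and 2 lower, beside 21.2% and 16.5% of all genes. At polyA GV3h 2 of its 5 tested genes were higher and 3 lower, beside 29.4% and 26.1% of all genes. At polyA MII 1 of its 5 was higher and 3 lower, beside 19.0% and 18.6%. Many of these are multicopy genes whose counts are uncertain. From GV to MII in polyA controls 4 of its 5 tested genes fell and none rose, where 33.3% of all genes fell and 30.1% rose. Among them Zscan4d fell by 2.41 (SE 0.75) and Tcstv3 by 1.23 (SE 0.29). From GV to MII in RiboMinus controls 3 homeobox genes rose and 2 fell of 20 tested, 3 regulators rose and 4 fell of 21, and 1 gene of the 2-cell list rose and none fell of 6. Over all genes 15.0% rose and 15.8% fell, and the counts of the first 2 lists are near that.

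Across single oocytes the 4 abundant members varied together in polyA libraries. Pearson r of log2(CPM + 1) over 64 oocytes ran from 0.89 for Obox2 and Obox7 to 0.99 for Obox1 and Obox5, and after subtracting each group's mean from 0.62 to 0.93. Over 22 RiboMinus oocytes r was 0.95 to 0.97 among Obox1, Obox2 and Obox5, and 0.30 to 0.47 between each of these and Obox7. The oocytes share groups, females and scaling, and Obox1 and Obox2 also share sequence, so these values are descriptive. Spearman rho was 0.89 to 0.98 among the polyA pairs and 0.38 to 0.92 among the RiboMinus pairs.

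Among 9473 other genes with an average log2 CPM of at least 3 in polyA libraries, the closest pattern to Obox1 and to Obox5 was that of Rfpl4 (r = 0.97 for each), an oocyte RING-finger-like gene. Ccdc69 was closest to Obox2 (r = 0.96) and Unc50 to Obox7 (r = 0.96). After subtracting each group's mean, r was 0.84 for Rfpl4 with Obox1 and 0.88 with Obox5. It was then 0.80 for Ccdc69 with Obox2 and 0.71 for Unc50 with Obox7. For the sum of the 6 members the 3 closest were Rfpl4 (r = 0.97), Ccdc69 (r = 0.97) and Orc6, a subunit of the origin recognition complex (r = 0.96). Over the 22 RiboMinus oocytes the r with the sum was 0.89 for Rfpl4, 0.89 for Ccdc69 and 0.58 for Orc6. For Obox7 and Unc50 it was -0.44 there.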

How the data were processed

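Members and lists were chosen with earlier results of these data known. For each oocyte, the deposited values used were raw read counts by Ensembl gene. Per the submitters' processing notes, the authors used mm10, cutadapt 2.5, STAR 2.7.2a and HTSeq 0.9.1; strand and multiple-alignment settings and the annotation release were not given in the sources used here. The 22 rRNA files were not analysed here. Of 55573 identifiers, 55394 matched a symbol, and coordinates and exon lengths came from GENCODE M21, which may differ from the authors' release. Each comparison used the oocytes of its groups alone: filterByExpr (minimum count 10), TMM, edgeR 4.0.16 quasi-likelihood F tests (R 4.3.3), two-sided, Benjamini-Hochberg over all genes tested, called at an adjusted p under 0.05; the SE is the log2 fold change divided by the square root of F. Alternatives were DESeq2 1.42.0, other scalings, no filter, sums per female, limma 3.58.1 with female as a random effect, and each female or MII RiboMinus egg left out. Named were the 6 members, other Obox genes with at least 10 counts in a library, nearest patterns by Pearson r, and at most 3 called genes per list.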

Additional observations from a re-analysis of the deposited data

Results flagged for a closer look

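In RiboMinus GV cKO oocytes the highest Obox7 value, 138 CPM in V1126_3, stood far from the next at 92.7 CPM (gap over range 0.586, above Dixon's limit for 7 samples). It was the only such value among 24 pairs of member and group examined, where chance gives about 1 in 20. Obox3, Obox6, the polyA cKO groups and the RiboMinus MII controls were not examined.

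The GV to MII change differed between genotypes in RiboMinus libraries by 1.70 for Obox2 and 1.62 for Obox5 on the log2 scale (cKO minus control, edgeR interaction, adjusted p = 0.0131 and 0.0231). Both calls were lost with sums per female, where 0 of 25425 genes were called (3611 at an unadjusted p under 0.05), and without V1131 or V1166. The MII controls were the eggs of a single female, V1145, so the sums hold 1 sample in that arm. Theca and stroma markers were higher in the same interaction for 2 of 5 tested (median 5.24), and their part was not tested. In controls the GV to MII change of Obox5 was 1.74 in polyA libraries, with every egg above every GV oocyte, and -1.25 in RiboMinus libraries, with every egg below, and this difference was not tested.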

How the results depend on the processing

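No paired analysis was possible because the groups compared share no female, and the shared oocyte numbers do not pair oocytes. Of 27 called member changes, none reversed in 320 repeats under alternatives and 69 repeats lost the call. Members called under library totals, counts summed per female and limma with female as a random effect were 2, 0 and 0 (against 4) at polyA GV, and 1, 1 and 1 (against 2) at polyA MII. At RiboMinus GV sums per female called 0 (against 4). At RiboMinus MII (against 1) library totals and DESeq2 called 3 (2 higher, 1 lower), no filter 4 (2 higher, 2 lower), sums per female 1 (Obox3, lower, in place of Obox7) and limma 0, and in the RiboMinus interaction (against 2) sums per female called 0 and limma 1. With a female or egg left out, the members called ran from 0 to 4 at polyA GV, 0 to 3 at GV3h, 0 to 3 at polyA MII, 0 to 4 at RiboMinus GV, 0 to 3 at RiboMinus MII, 0 to 1 from GV to GV3h in cKO, 0 to 1 from GV to MII in RiboMinus cKO, 0 to 4 in the polyA interaction and 0 to 3 in the RiboMinus interaction. Sums per female hold 1 sample for RiboMinus MII controls, assumed to vary like the other groups. The cause of these shifts was not tested. With a female left out, a group also holds fewer oocytes and in places a single female.

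Uncalled values changed sign as follows. Obox7 at polyA MII was 0.064 by library totals, 0.12 by sums per female and 0.021 by limma. With a female or egg left out, Obox7 ran from -0.15 to 0.24 at polyA MII and from -0.30 to 0.14 at GV3h, and Obox1 from -0.22 to 0.98 at RiboMinus MII. From GV to GV3h in controls the ranges were -0.51 to 0.17 for Obox1, -0.71 to 0.27 for Obox2, -0.43 to 0.25 for Obox5 and -0.56 to 0.051 for Obox7. In cKO they were -0.53 to 0.29 for Obox5 and -0.13 to 0.38 for Obox7. From GV to MII in RiboMinus cKO they were -0.64 to 0.66 for Obox1, -0.24 to 1.02 for Obox2 and -0.48 to 0.95 for Obox5. In the polyA interaction they were -0.077 to 0.74, -0.30 to 0.65 and -0.31 to 0.81 for Obox1, Obox2 and Obox5.

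Over all genes, sums per female called 1 gene at polyA GV (against 5908), 2522 at polyA MII (against 4727), 3 at RiboMinus GV (against 5774), 1703 at RiboMinus MII (against 3949), 2 and 0 from GV to GV3h in controls and cKO (against 66 and 86), 0 from GV to MII in RiboMinus cKO (against 2770), and 13 and 0 in the polyA and RiboMinus interactions (against 2287 and 2837). limma called 1379, 2725, 27, 10, 802, 548 and 833 at polyA GV, RiboMinus GV, both GV to GV3h comparisons, RiboMinus cKO GV to MII and both interactions. DESeq2 called 147 and 223 from GV to GV3h, and no filter 15709 from GV to MII in polyA cKO (against 9887).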
